A study of Mus musculus with 128 samples.

Results

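The kidney of male C57BL/6J mice was compared at 15 and 6 months of age, the earliest step in age that the atlas offers for this organ. The members are the 8 kidney libraries of these ages, 4 at 6 months and 4 at 15 months, of 128 libraries of 8 tissues in all, and the comparison runs across every gene with enough reads. All 8 come from wild-type mice labelled male with no treatment, so the 2 groups differ in the labels by age alone (6mo and 15mo). The tissue was frozen and ground whole, so cortex, medulla, vessels and the blood within them are measured together. Nothing in the labels says whether the 4 libraries of an age come from 4 animals, so p-values measure the spread between these libraries.

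The kidney filters blood in its glomeruli and then reclaims most of the filtrate along the nephron: through the proximal tubule, the loop of Henle, the distal convoluted tubule and the collecting duct. The proximal tubule carries the transporters for organic ions, glucose, amino acids and phosphate, burns fatty acids for energy, and in mice expresses many of its transporters and enzymes at different levels in males and females because androgens regulate them. Injured or stressed tubule cells switch on a known set of genes, among them Havcr1 (KIM-1) and Lcn2 (NGAL), and the ageing kidney is known for gathering leukocytes around tubules and vessels.

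Values are reads per gene divided by a single size factor per library, as deposited, and are called normalised values here. A change is a difference of mean log2(normalised value + 1), 15 minus 6 months, with its standard error (SE), and an adjusted p is that of limma-trend with Benjamini-Hochberg adjustment over all genes tested in these 8 libraries, with 0.05 as the threshold. Depth ran from 13.5 to 17.7 M reads at 6 months and from 11.9 to 23.2 M at 15 months. The kidney's defining genes were present throughout, such as Umod of the loop of Henle at 44710 to 49400. Some libraries stood apart in genes of other cells. Replicate 3 at 15 months held RNA of genes typical of liver: albumin (Alb) measured 301, 125, 127 and 197 at 6 months and 309.6, 203, 1659 and 367 at 15 months, and Apoa1 and Mup3 were highest in the same library (196 and 130.4). Replicate 4 at 6 months held more immunoglobulin heavy chain (Ighm) than the other libraries of its age. Globin transcripts of red cells were higher in all 4 libraries at 15 months, as described with the erythroid genes. Of 11 liver genes tested, 3 were higher (Serpina1a, Fga and Fgg) and 1, Ttr, lower, beside 1.48% higher and 1.09% lower among all genes; none passed with all 16 kidney libraries. The median log2 fold change of the list was 0.682, and 0.211 without replicate 3 at 15 months. Serpina1a, an inhibitor of serine proteases, measured 1026, 913, 952 and 885 at 6 months and 1824, 1511, 2127 and 1745 at 15 months; it rose by 0.92 (adjusted p = 0.000252), and by 0.84 without that library (adjusted p = 0.000285). For the main lists, counts are also given without single libraries where that moves them by over 1.5 times.

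Of 14825 genes tested, 381 passed the threshold (2.57%), 220 higher at 15 months (1.48%) and 161 lower (1.09%). Of the 220, 17 met the read minimum in all 4 libraries at 15 months but not in all 4 at 6 months, and so entered the test through the age at which they were high. Most changes were modest: the median size among the 381 was 0.466 on the log2 scale, and 45 of the higher and 14 of the lower genes changed by a factor of 2 or more. In 370 of the 381 the values of the 4 older and the 4 younger libraries did not overlap, which holds for 10.2% of all genes tested. When all 16 kidney libraries, with 24 and 30 months, set the spread, 75 of 15625 genes passed (0.48%), 59 higher (0.378%) and 16 lower (0.102%). Of these 75, 70 were among the 381. Of 106 genes named here that passed, 73 did not pass in that fit. When that fit lacked 30-month replicates 3 and 4, 328 genes passed, and 21 of the 106 did not. Without replicate 2 at 6 months 148 genes passed, without replicate 4 at 15 months 196, without replicate 3 at 6 months 229 and without replicate 3 at 15 months 250. In 13 fits (the 8-library and 16-library fits, edgeR, DESeq2, limma-voom and the 8 fits that leave out 1 library each) 48 genes passed every time (0.324%), 39 of them higher and 9 lower.

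**Figure D1:**
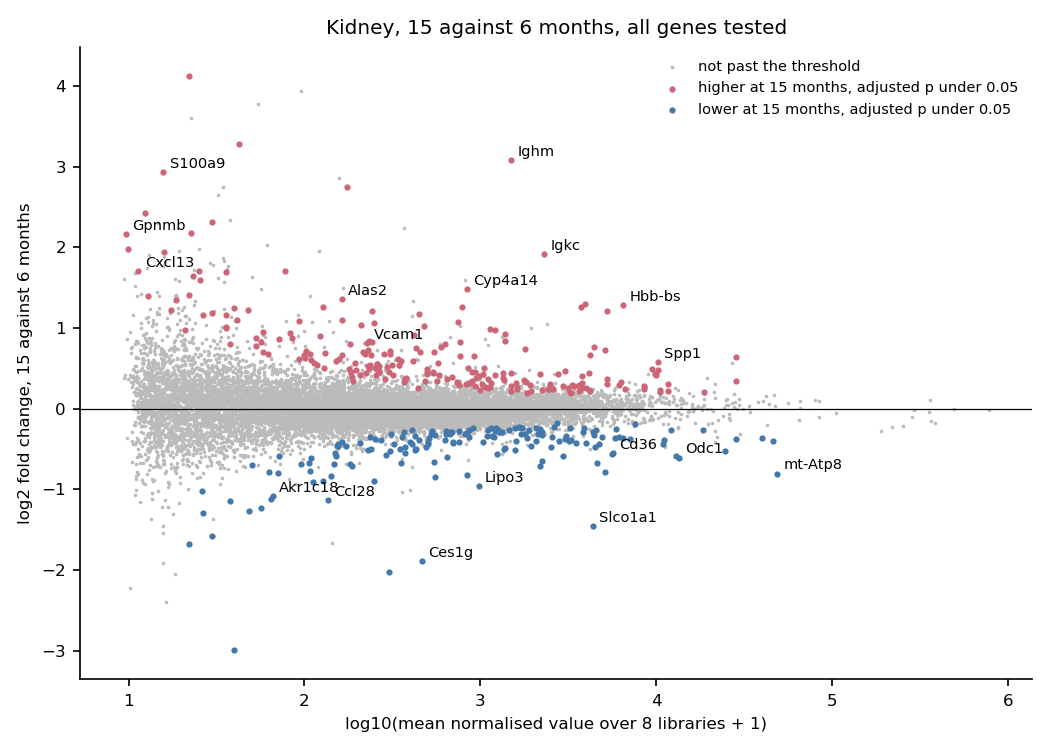
Log2 fold change in kidney at 15 against 6 months (vertical axis) against log10 of the mean normalised value over the 8 libraries plus 1 (horizontal axis), 1 point per gene tested. The 220 genes past the threshold that were higher are in red and the 161 lower in blue; Ighm and Igkc stand at the top right and Slco1a1 and Ces1g at the bottom.

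Several proximal tubule genes typical of the male kidney were lower at 15 months. Slco1a1, the organic anion transporter of the brush border and an androgen-dependent gene, had the smallest adjusted p of the genes that fell. It measured 6154, 6861, 6685 and 5984 at 6 months and 2095, 2186, 2590.3 and 2535 at 15 months (log2 fold change -1.45 ± 0.07 (SE), adjusted p = 1.27e-06). The ages did not overlap, and the older level was 0.365 times the younger one. With all 16 libraries it missed the threshold (adjusted p = 0.448). Odc1, ornithine decarboxylase, which starts polyamine synthesis, measured 15905, 17645, 14391 and 17110 at 6 months and 11403, 11534, 9651 and 10161 at 15 months (log2 fold change -0.61 ± 0.07 (SE), adjusted p = 0.00132). Acsm3, a medium-chain acyl-CoA synthetase, measured 15469, 16444, 17361 and 13136 at 6 months and 9202, 9676, 11114 and 11557 at 15 months (log2 fold change -0.59 ± 0.09 (SE), adjusted p = 0.0053). The older libraries of both genes were all below the younger ones. Of 15 male-typical genes tested, 7 were lower (Slco1a1, Odc1, Acsm3, Slc22a7, Cyp4b1, Cyp2j13 and Gusb) and 2 higher (Cyp4a12b and Akr1c21), beside 1.09% lower and 1.48% higher among all genes, with a median log2 fold change of -0.309 beside -0.0014 over all genes. Cyp4b1, a cytochrome P450 and among the most abundant of these, changed by -0.40, and Cyp4a12b, an androgen-induced fatty acid hydroxylase, by 0.70 in the other direction (347, 443, 426 and 429 at 6 months and 639, 582, 671 and 797 at 15 months). Between 5 and 7 were lower when any 1 of the 8 libraries was left out, and 1 was higher except without replicate 4 at 6 months. With all 16 libraries 1 of the 15 passed, Cyp4a12b. Of 7 genes typical of the female kidney, 2 were higher, Cyp4a14 and the cytochrome P450 Cyp2a4 (log2 fold change 0.48 ± 0.06 (SE), adjusted p = 0.00152). Fmo5 was lower (-0.29), and the median was 0.459. Without any 1 library other than replicate 4 at 6 months, 1 of the 7 was higher and none lower. In bulk tissue, fewer cells of a type and less RNA per cell cannot be told apart.

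**Figure D2:**
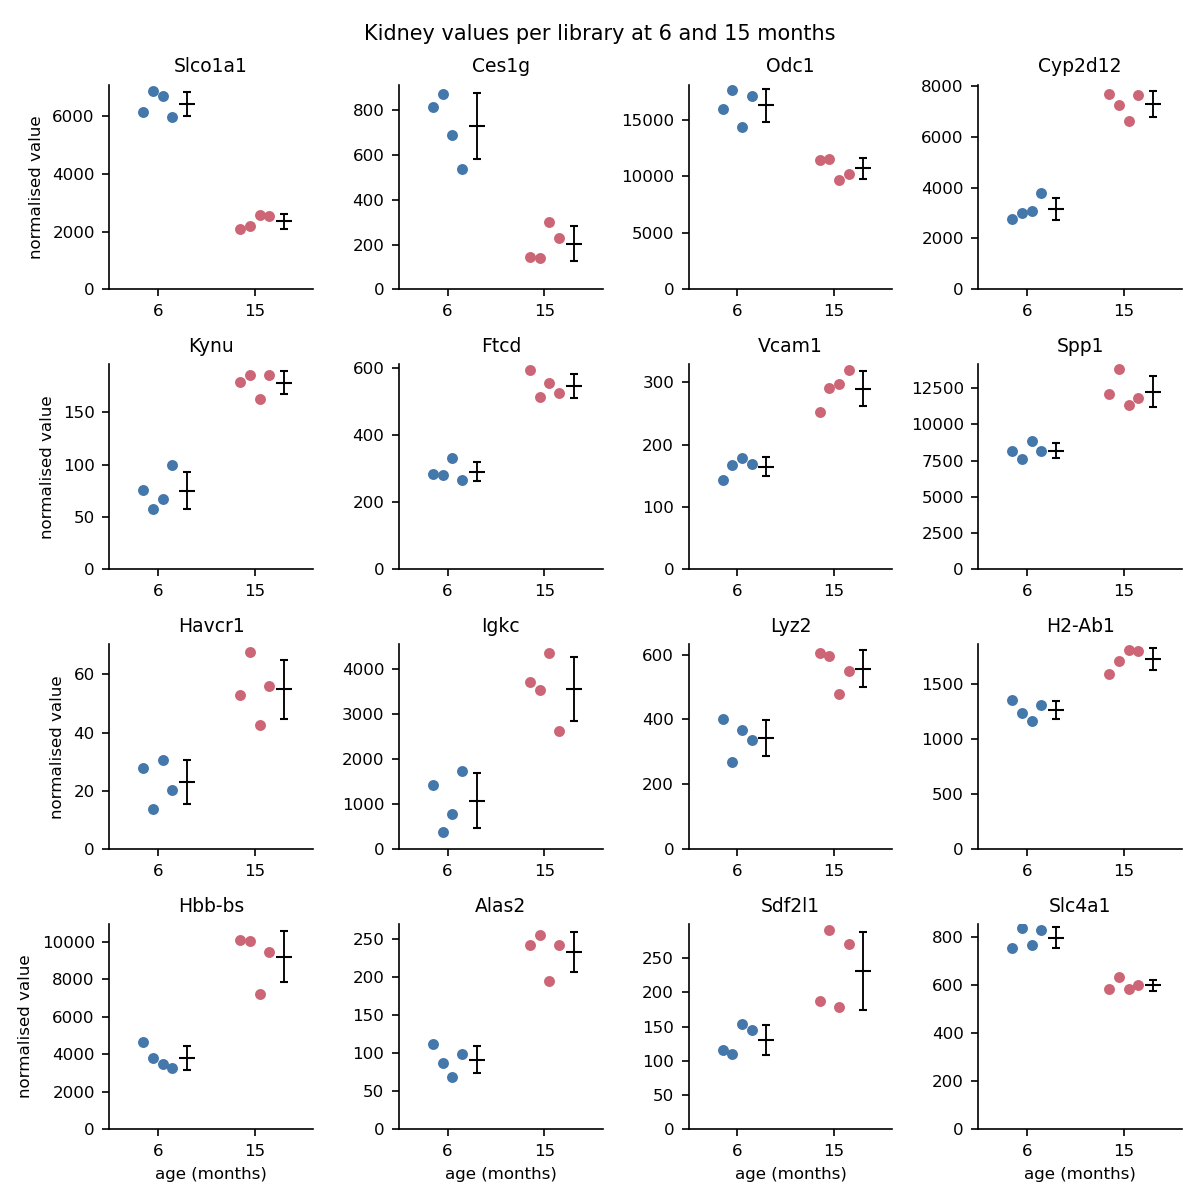
Normalised values of 16 genes in each kidney library at 6 months (blue, 4 points) and 15 months (red, 4 points), replicates 1 to 4 from left to right, with the mean and SD beside the points; each vertical axis starts at 0. The ages do not overlap for any of the 16 genes; Slco1a1, Ces1g, Odc1 and Slc4a1 are lower and the other 12 higher at 15 months.

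Of 25 organic ion transporters, 4 were lower and 1 higher, beside 1.09% lower and 1.48% higher among all genes, with a median of -0.00229. Besides Slco1a1, the organic anion transporter Slc22a7 measured 1682, 1583, 1772 and 1383 at 6 months and 1264, 1094, 925 and 1267 at 15 months (log2 fold change -0.50 ± 0.10 (SE), adjusted p = 0.023), and the urate transporter Slc22a12 changed by -0.27 (adjusted p = 0.021). The efflux pump Abcc4 was the member that rose (824, 735, 723 and 850.5 at 6 months and 1088, 1195, 962 and 1060.5 at 15 months; log2 fold change 0.46, adjusted p = 0.00822). Without replicate 2 at 6 months 1 of the 25 was lower, without replicate 3 at 6 months or replicate 2 at 15 months 2, and with 16 libraries no member passed. Of 10 genes of the last proximal segment (S3), 4 were lower and 1 higher. Slc5a8, a lactate and monocarboxylate carrier, changed by -0.47 (adjusted p = 0.00897), Acy3, an aminoacylase that handles mercapturic acids, by -0.37 (adjusted p = 0.0219), and Slc5a11, an inositol carrier, by 0.37 (adjusted p = 0.0173). The count of lower S3 genes was 1 without replicate 2 at 6 months, 2 without replicate 1 or 3 at 6 months or replicate 2 or 3 at 15 months, and 0 with 16 libraries, and Slc5a11 missed without replicate 2 or 3 at 6 months or replicate 4 at 15 months. Markers of the whole proximal tubule did not fall: of 17, 2 rose, Miox (inositol oxygenase, 0.35) and Cubn (the endocytic receptor cubilin, 0.23), and none was lower, with a median of 0.137; 1 of the 17 was higher without replicate 1 or 2 of either age.

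Other genes that fell included enzymes of lipid and steroid metabolism. Ces1g, a carboxylesterase, measured 815, 874, 690.5 and 539 at 6 months and 144, 141, 302 and 229 at 15 months (log2 fold change -1.88 ± 0.22 (SE), adjusted p = 0.000932), 0.271 times the younger level. Lipo3, of the acid lipase family, measured 1240.3, 1346, 1314 and 1266 at 6 months and 577, 637, 755 and 707 at 15 months (log2 fold change -0.95 ± 0.08 (SE), adjusted p = 0.000113). Hsd11b1, which regenerates active glucocorticoid, measured 2906, 2542, 3237 and 2154 at 6 months and 1443, 1532, 1657 and 1944 at 15 months and passed in all 13 fits (log2 fold change -0.71 ± 0.12 (SE), adjusted p = 0.0072). Akr1c18, a hydroxysteroid dehydrogenase that inactivates progesterone, changed by -1.08 and Ttr, the thyroid hormone carrier transthyretin, by -0.82. Cd36, a fatty acid transporter, measured 6277, 6815, 7039 and 6945 at 6 months and 4488, 4735, 4552 and 4749 at 15 months (log2 fold change -0.55 ± 0.05 (SE), adjusted p = 0.000188). Lpl, lipoprotein lipase, measured 12237, 12118, 12106 and 13790 at 6 months and 10028, 9474, 9604 and 8179 at 15 months (log2 fold change -0.43 ± 0.07 (SE), adjusted p = 0.00539). Each older library was below each younger one for both, and both missed the threshold with 16 libraries (adjusted p = 0.205 and 0.105). Ces1g, Lipo3, Akr1c18 and Ttr missed it with 16 libraries too (adjusted p = 0.15, 0.151, 0.211 and 0.142).

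Other enzymes were higher at 15 months. Cyp2d12, a cytochrome P450, measured 2768, 3009, 3093 and 3792 at 6 months and 7692, 7240.4, 6614 and 7660.2 at 15 months, 2.32 times the younger level, and passed in all 13 fits (log2 fold change 1.21 ± 0.09 (SE), adjusted p = 3.07e-05); Cyp2d genes have close copies that can share reads. Kynu, kynureninase of tryptophan breakdown, measured 75.8, 57.7, 67.3 and 99.2 at 6 months and 179, 186, 162 and 186 at 15 months (log2 fold change 1.26 ± 0.15 (SE), adjusted p = 0.000932). Ftcd, which ends histidine breakdown and feeds the folate pool, measured 283, 282, 333 and 267 at 6 months and 594, 515, 557 and 525 at 15 months (log2 fold change 0.91 ± 0.08 (SE), adjusted p = 0.000188). Uroc1, urocanase of the same histidine route, rose by 0.32 (adjusted p = 0.00607), and both it and Ftcd passed in all 13 fits. Cyp2c23, an epoxygenase of arachidonic acid, measured 395, 492, 428 and 455 at 6 months and 810.5, 732, 736 and 732 at 15 months (log2 fold change 0.77 ± 0.07 (SE), adjusted p = 0.000252). Hao2, a peroxisomal hydroxy acid oxidase, rose by 0.73 and the carboxylesterase Ces2e by 0.68, also in every fit. All of these had older libraries above every younger one. Aldh1a1, which makes retinoic acid from retinaldehyde, measured 139, 144, 159 and 200.5 at 6 months and 307, 312, 395 and 324 at 15 months (log2 fold change 1.06 ± 0.12 (SE), adjusted p = 0.000829), its close relative Aldh1a7 rose by 0.62, and Aldh1a2 by 1.09 (adjusted p = 0.0219). The retinol dehydrogenase Rdh16f2 measured 414, 458, 444 and 588 at 6 months and 1308, 1024, 829 and 873 at 15 months (log2 fold change 1.07). Aldh1a1 and Aldh1a7 are similar enough that reads could be split between them. With 16 libraries Kynu, Aldh1a2 and Rdh16f2 missed the threshold (adjusted p = 0.112, 0.052 and 0.158). Prkag3, a regulatory subunit of the energy sensor AMPK, measured 111, 81.5, 108 and 106 at 6 months and 156, 292, 209 and 232 at 15 months and passed in all fits (log2 fold change 1.09 ± 0.17 (SE), adjusted p = 0.0053).

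Of 30 fatty acid oxidation genes and targets of the fasting regulator PPAR alpha, 6 were higher (Cyp4a14, Pdk4, Angptl4, Acaa1b, Acaa2 and Hadha) and 1 lower (Acot12), beside 1.48% higher and 1.09% lower among all genes, with a median of 0.136. Cyp4a14, a fatty acid hydroxylase, measured 217, 445, 327 and 974 at 6 months and 1449, 1261, 1056 and 989 at 15 months; replicate 4 at 6 months lay just under the lowest older library (log2 fold change 1.49 ± 0.33 (SE), adjusted p = 0.036). Pdk4, which shuts off glucose oxidation, measured 174, 329.9, 261 and 349 at 6 months and 476, 718, 579 and 696 at 15 months (log2 fold change 1.18 ± 0.19 (SE), adjusted p = 0.00728). Angptl4, an inhibitor of lipoprotein lipase, measured 527, 771, 911 and 846 at 6 months and 1261, 1401, 1471 and 1862 at 15 months (log2 fold change 0.99 ± 0.15 (SE), adjusted p = 0.00539). The thiolases moved less, Acaa1b of peroxisomes by 0.44 and Acaa2 of mitochondria by 0.28. Acot12 missed without replicate 2 at 6 months, and with 16 libraries no member passed. The direct repeat that PPAR alpha binds (AGGTCA, 1 base of any kind, AGGTCA) was searched on both strands of the 250 bases before the gene start in RefSeq (GRCm38.p6). It was found in none of the 21 members with an entry, beside 0.0407% of 27025 genes. Only exact copies were searched, and so rare a motif was likely to be absent from 21 genes. The search therefore cannot tell whether PPAR alpha binds these genes.

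Several genes of tubule injury were higher. Of 25 tested, 10 were higher and none lower, beside 1.48% higher among all genes, with a median of 0.411. Havcr1, the injury receptor KIM-1, measured 27.8, 13.8, 30.5 and 20.2 at 6 months and 52.9, 67.6, 42.8 and 55.9 at 15 months, with the ages apart at low levels (log2 fold change 1.25 ± 0.25 (SE), adjusted p = 0.021). Lcn2, the iron-binding protein NGAL, measured 53.7, 32.6, 40.6 and 28.3 at 6 months and 82.2, 71.9, 56.3 and 89.8 at 15 months (log2 fold change 0.95 ± 0.21 (SE), adjusted p = 0.0353). Spp1, osteopontin, measured 8138, 7585, 8885 and 8192 at 6 months and 12109, 13835, 11330 and 11814 at 15 months (log2 fold change 0.58 ± 0.07 (SE), adjusted p = 0.000829). Vcam1, the adhesion molecule of endothelium and of tubule cells that fail to recover, measured 144, 167, 179 and 169 at 6 months and 252, 290.5, 297 and 319.9 at 15 months (log2 fold change 0.81 ± 0.10 (SE), adjusted p = 0.00122). Icam1, its partner in leukocyte adhesion, measured 322, 292, 249 and 257 at 6 months and 403, 443, 412 and 429.9 at 15 months (log2 fold change 0.60 ± 0.09 (SE), adjusted p = 0.00444). Clu, the secreted chaperone clusterin, measured 3385, 3097, 3223 and 3154 at 6 months and 5415, 5884, 3993 and 5294 at 15 months (log2 fold change 0.66 ± 0.10 (SE), adjusted p = 0.00388). Spp1, Vcam1, Icam1 and Clu were the 4 members that passed in all 13 fits; C3, Krt18, Vim and Cp completed the 10. The count was 6 without replicate 2 at 6 months or replicate 2 at 15 months, and 5 with 16 libraries. Outside the list, S100a6, a calcium-binding protein, measured 199.5, 162, 155 and 141 at 6 months and 254, 256, 267 and 285 at 15 months (log2 fold change 0.70 ± 0.11 (SE), adjusted p = 0.00516) and Myof, a membrane repair protein, rose by 0.56; both passed in every fit.

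Leukocyte genes were higher in part. Of 19 macrophage genes tested of 22 listed, 6 passed, all higher (Gpnmb, Lyz2, C1qb, C1qa, Cd74 and C1qc), beside 1.48% higher among all genes, while Csf1r, the receptor that macrophages need to survive, did not pass, with a 95% interval of the log2 fold change of -0.15 to 0.14 (869, 810.3, 858 and 816 at 6 months and 819.5, 948, 770.3 and 820.4 at 15 months). Lyz2, lysozyme, measured 400, 269.7, 367 and 337 at 6 months and 606, 595, 479.6 and 548 at 15 months (log2 fold change 0.71 ± 0.11 (SE), adjusted p = 0.00699). Gpnmb, of lipid-laden macrophages, measured 2.88, 1.25, 1.27 and 6.07 at 6 months and 16.9, 14.4, 12.1 and 14.7 at 15 months (log2 fold change 2.16). It met the read minimum only at 15 months and so entered the test through the age at which it was high; its call is no support for a rise of the list. Of 23 antigen presentation genes, 6 rose (beside 1.48% of all genes), led by the class II genes: H2-Ab1 measured 1358, 1236, 1169 and 1309 at 6 months and 1596, 1713, 1809 and 1800.2 at 15 months (log2 fold change 0.45 ± 0.06 (SE), adjusted p = 0.00293) and Cd74, the invariant chain, rose by 0.47. Of 23 complement genes, 8 were higher and 1, the inhibitor Cd55, lower, beside 1.48% and 1.09% of all genes. C3, the central component, measured 351, 232, 277 and 403 at 6 months and 517, 624, 802 and 599 at 15 months (log2 fold change 1.02 ± 0.16 (SE), adjusted p = 0.00607). C7, of the membrane attack complex, measured 119.9, 119, 128 and 133 at 6 months and 202, 197, 210.2 and 186 at 15 months (log2 fold change 0.66 ± 0.09 (SE), adjusted p = 0.00236), and Cfi, which degrades C3b, rose by 0.91. Liver makes most plasma complement, and the library with the highest albumin had the highest C3 (802), Cfi (192) and C4b (416). Without it C3 and Cfi still passed (0.90 and 0.81, adjusted p = 0.0172 for both), while C4b did not (adjusted p = 0.0657). The macrophage count was 3 without any of replicates 2 and 3 at 6 months or replicates 2, 3 and 4 at 15 months. The complement count of higher genes was 5 without replicate 2 or 3 at 6 months or replicate 3 or 4 at 15 months, and no complement gene was lower without any 1 library other than replicate 4 at 6 months or replicate 2 at 15 months. With 16 libraries 1 macrophage gene, Gpnmb, and no complement or antigen presentation gene passed.

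Several antibody transcripts were higher at 15 months. Igkc, the kappa light chain constant region, measured 1424, 390.1, 768 and 1724 at 6 months and 3693, 3520.2, 4339 and 2621 at 15 months (log2 fold change 1.91 ± 0.35 (SE), adjusted p = 0.0139), and Ighm measured 125, 123, 222 and 1883 at 6 months and 2266, 2975, 2230.4 and 2203 at 15 months (log2 fold change 3.08 ± 0.65 (SE), adjusted p = 0.0274). Replicate 4 at 6 months reached 1883 for Ighm, close to the older libraries, while the other 3 lay at 123 to 222. Ighg2b was also highest there among the younger libraries (24.0, 20.1, 25.4 and 132 at 6 months and 199, 97.8, 551 and 339 at 15 months; log2 fold change 2.74). Of 20 B and plasma cell genes, 5 were higher (Ighm, Ighg2b, Igkc, Iglc2 and Derl3, which is also an endoplasmic reticulum gene), beside 1.48% higher among all genes. Of these 5, Iglc2 met the read minimum in all 4 libraries at 15 months but not in all 4 at 6 months. The count was 1 without replicate 1 or 2 at 6 months or replicate 3 at 15 months, 2 without replicate 3 at 6 months or replicate 1 or 2 at 15 months, and 0 with 16 libraries. Of 25 T and NK cell genes 11 were tested, 2 of them with all 4 libraries at the read minimum at 15 months only. None passed by limma-trend, 5 had an unadjusted p under 0.05, beside 2465 of all 14825 genes tested, and DESeq2 and limma-voom called 1 each. Of the 11, 10 had a log2 fold change above 0, with a median of 0.693, so the lack of calls does not show that they were unchanged. None of 38 interferon response genes passed by limma-trend, edgeR, DESeq2 or limma-voom, with 11 at an unadjusted p under 0.05 and a median of 0.103; 1 was higher without replicate 4 at 6 months and 1 lower without replicate 3 at 15 months. Cxcl13, a B cell chemokine, measured 2.88, 3.76, 3.81 and 7.09 at 6 months and 16.9, 12.9, 22.8 and 12.8 at 15 months (log2 fold change 1.71). It met the read minimum at 15 months alone. Ccl28, an epithelial chemokine that draws antibody-secreting cells, fell, from 227, 178, 159 and 174 at 6 months to 72.0, 112, 79.1 and 74.2 at 15 months (log2 fold change -1.13 ± 0.15 (SE), adjusted p = 0.00274).

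Globin transcripts of red cells and Alas2 were higher at 15 months. Hbb-bs, adult beta globin, measured 4672, 3773, 3447 and 3250.0 at 6 months and 10109, 10020, 7209 and 9476 at 15 months, 2.43 times the younger level (log2 fold change 1.28 ± 0.12 (SE), adjusted p = 0.00023). Hba-a1, alpha globin, measured 2857, 2126, 2089 and 2005 at 6 months and 6629, 5487, 4267 and 6016 at 15 months (log2 fold change 1.30 ± 0.13 (SE), adjusted p = 0.000302). Alas2, the erythroid enzyme that starts haem synthesis, measured 111, 86.5, 68.5 and 98.2 at 6 months and 242, 255, 195 and 241 at 15 months (log2 fold change 1.36 ± 0.14 (SE), adjusted p = 0.000463). Hba-a2 and Hbb-bt rose by 1.25 and 1.26, and these 5 genes passed in all 13 fits. In all, 5 of 7 erythroid genes tested were higher, with a median of 1.26 over the 7, and 1 was lower, Slc4a1, which red cells share with intercalated cells. Among all genes 1.48% were higher and 1.09% lower. The summed level of the list ran from 9213 to 12340 at 6 months and from 17680 to 25600 at 15 months. Of 16 neutrophil and mast cell genes, which blood also carries, only S100a9 and Csf3r were tested. Both met the read minimum in all 4 libraries at 15 months but not in all 4 at 6 months, so their calls support nothing. S100a9 measured 2.88, 0, 6.35 and 3.04 at 6 months and 27.0, 46.0, 13.5 and 19.2 at 15 months and Csf3r 16.3, 11.3, 11.4 and 6.07 at 6 months and 21.4, 40.3, 27.1 and 34.8 at 15 months. Neither passed with 16 libraries, or without replicate 2 or 4 at 15 months. Within the older group the library with the lowest globin, replicate 3, had the highest Igkc (4339) and C3 (802) and the lowest S100a9 (13.5). Lyz2 and Gpnmb were also lowest in replicate 3, while Ighg2b, H2-Ab1 and C7 were highest there. Replicate 3 was also the library with the most albumin (1659). The part of blood in the leukocyte and antibody results was not tested.

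The alpha globin genes are neighbouring copies, and they are shown because the likeness reaches beyond the transcript: before the gene start in RefSeq, their sequences are identical over 247 of 247 bases once shifted by 3 bases. The 100 bases before each start follow, with the TATA box letters TATAA in capitals (GRCm38.p6, plus strand, chr11:32283572-32283671 and chr11:32296392-32296491). Reads of near-identical transcripts can be divided between such copies, so the separate log2 fold changes of Hba-a1 and Hba-a2 are uncertain.
Hba-a1: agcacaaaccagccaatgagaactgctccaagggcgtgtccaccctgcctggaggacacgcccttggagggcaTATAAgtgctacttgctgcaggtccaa
Hba-a2: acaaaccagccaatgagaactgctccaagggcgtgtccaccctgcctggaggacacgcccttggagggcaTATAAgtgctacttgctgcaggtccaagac

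Several chaperones and folding enzymes of the endoplasmic reticulum were higher at 15 months. Of 25 genes of the endoplasmic reticulum stress list, 8 rose (Derl3, Sdf2l1, Creld2, Hsp90b1, Pdia6, Calr, Dnajb11 and Pdia3) and none fell, beside 1.48% higher among all genes, with a median of 0.2. Sdf2l1, a chaperone cofactor, measured 115, 109, 154 and 145 at 6 months and 187, 290.5, 179 and 270.4 at 15 months; replicates 2 and 4 were highest at 15 months (log2 fold change 0.80 ± 0.17 (SE), adjusted p = 0.0268). Pdia6, a disulphide isomerase, measured 2180.4, 2391, 2684 and 2227 at 6 months and 2865, 3615, 2899 and 3395 at 15 months (log2 fold change 0.43 ± 0.08 (SE), adjusted p = 0.021). Creld2 measured 393, 416, 533 and 472 at 6 months and 563, 650.0, 629.9 and 618 at 15 months (log2 fold change 0.45 ± 0.09 (SE), adjusted p = 0.0244). Hsp90b1, the abundant chaperone GRP94, measured 7670.1, 7829.5, 10120 and 7788 at 6 months and 9828, 12988, 10601 and 11491 at 15 months (log2 fold change 0.43), with replicate 3 at 6 months inside the older range. These calls lay close to the threshold. None of the 25 passed without replicate 1 or 2 at 6 months or replicate 4 at 15 months, 2 without replicate 2 or 3 at 15 months, 3 without replicate 4 at 6 months, 6 without replicate 3 at 6 months or replicate 1 at 15 months, and none with all 16 libraries.

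The endoplasmic reticulum stress element, which the factors ATF6 and XBP1 bind, is spelled CCAAT, 9 bases of any kind, then CCACG. Searched on both strands of the 250 bases before the gene start in RefSeq (GRCm38.p6), it was found in 9 of the 23 list members with an entry and in 5 of the 8 that rose, beside 0.13% of 27025 genes. Hspa5, Dnajc3, Canx and Syvn1 hold it too but did not pass, while Sdf2l1, Dnajb11 and Pdia3 rose without it. Of 19 tested genes of the whole genome that hold it, 6 were higher, beside 1.48% higher among all genes, and none was lower. Of these 6, 5 are the list members already counted, and the sixth was Acnat2. The median log2 fold change of the 19 was 0.133. The motif was chosen, with 8 others, after the values had been seen, and a match is a description of the letters only. The excess of the list over the genome is a trait of a list made of stress genes and says nothing about their rise. The sequences of the 5 members that rose and hold the element are shown: Hsp90b1 (chr10:86705445-86705694, minus strand), Pdia6 (chr12:17266339-17266588, plus), Creld2 (chr15:88819396-88819645, plus), Calr, calreticulin (chr8:84846932-84847181, minus), and Derl3, a factor of protein degradation (chr10:75893148-75893397, plus). They run 5′ to 3′ towards the gene, end at the base before the start, and have the element, on either strand, in capitals. Hsp90b1 holds it at 2 places, -212 to -194 and -107 to -89 from the start, and the others at 1.
Hsp90b1: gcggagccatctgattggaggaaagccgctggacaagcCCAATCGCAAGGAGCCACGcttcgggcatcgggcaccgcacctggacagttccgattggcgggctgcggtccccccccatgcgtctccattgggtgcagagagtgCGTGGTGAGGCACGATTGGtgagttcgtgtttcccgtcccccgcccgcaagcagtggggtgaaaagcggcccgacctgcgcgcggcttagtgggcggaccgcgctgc
Pdia6: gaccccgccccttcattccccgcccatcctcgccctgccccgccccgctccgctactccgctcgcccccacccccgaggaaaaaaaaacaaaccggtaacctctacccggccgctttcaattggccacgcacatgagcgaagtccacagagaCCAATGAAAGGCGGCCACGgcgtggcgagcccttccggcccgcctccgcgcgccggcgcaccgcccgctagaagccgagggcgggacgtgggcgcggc
Creld2: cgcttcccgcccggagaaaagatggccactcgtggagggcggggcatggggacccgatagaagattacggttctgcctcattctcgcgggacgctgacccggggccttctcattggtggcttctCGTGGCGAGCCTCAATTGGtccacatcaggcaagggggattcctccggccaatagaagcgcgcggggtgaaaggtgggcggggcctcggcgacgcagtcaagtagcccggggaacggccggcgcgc
Calr: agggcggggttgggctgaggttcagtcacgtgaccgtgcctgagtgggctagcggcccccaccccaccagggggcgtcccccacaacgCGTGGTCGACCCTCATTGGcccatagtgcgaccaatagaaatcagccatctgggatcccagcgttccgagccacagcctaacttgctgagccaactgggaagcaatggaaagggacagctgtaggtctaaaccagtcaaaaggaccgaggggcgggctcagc
Derl3: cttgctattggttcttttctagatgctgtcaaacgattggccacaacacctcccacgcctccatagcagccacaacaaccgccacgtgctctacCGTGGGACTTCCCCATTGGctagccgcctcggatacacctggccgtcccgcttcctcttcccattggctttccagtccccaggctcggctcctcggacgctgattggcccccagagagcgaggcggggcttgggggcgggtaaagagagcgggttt

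Intercalated cells of the collecting duct secrete acid or base. All 12 of their genes tested had a log2 fold change below 0, with a median of -0.264, and 3 passed, all lower, beside 1.09% lower among all genes. Slc4a1, the basolateral bicarbonate exchanger of acid-secreting cells, measured 754, 840.4, 767 and 829 at 6 months and 583, 633, 586 and 599 at 15 months (log2 fold change -0.41 ± 0.06 (SE), adjusted p = 0.00444). Insrr, an alkali-sensing receptor, measured 411, 463, 405 and 453 at 6 months and 313, 290.5, 326 and 309 at 15 months (log2 fold change -0.48 ± 0.07 (SE), adjusted p = 0.00516). Hmx2, a transcription factor, measured 103, 120.4, 121 and 126 at 6 months and 78.8, 70.5, 78.4 and 62.3 at 15 months (log2 fold change -0.69 ± 0.12 (SE), adjusted p = 0.0109). Between 3 and 4 members were lower when any 1 of the 8 libraries was left out, and none passed with 16 libraries. Of principal cell genes 1 of 12 was lower, the sodium channel subunit Scnn1b (-0.27), and of distal convoluted and connecting tubule genes 1 of 12, the calcium exchanger Slc8a1 (-0.31). The principal cell count was 2 without replicate 1 at 15 months and 0 without any other 1 library. The count of lower distal genes was 1 without replicate 2 of either age and 0 without any other 1 library, and both counts were 0 with 16 libraries. No podocyte (12 tested), loop of Henle (10) or endothelial (14) gene passed by limma-trend. In the same order 0, 2 and 2 had an unadjusted p under 0.05, beside 2465 of all 14825 genes tested. DESeq2, limma-voom and the fit without replicate 4 at 6 months called 1 loop gene, lower. Cyp27b1, which makes active vitamin D, measured 111, 102, 263 and 129.6 at 6 months and 232, 426, 329 and 348 at 15 months (log2 fold change 1.21 ± 0.26 (SE), adjusted p = 0.0287). Ace, the angiotensin-converting enzyme of the brush border, changed by -0.32 (adjusted p = 0.0424). Cyp27b1 and Ace each passed in 6 of the 13 fits, and both missed the threshold with 16 libraries (adjusted p = 0.112 and 0.651).

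Several genes known from kidney ageing did not pass by limma-trend in the 8 libraries. Klotho (Kl), the phosphate regulator, measured 13016, 12586, 12524 and 13637 at 6 months and 12590, 12931, 13676 and 14175 at 15 months, with a 95% interval of the log2 fold change of -0.07 to 0.16. Renin (Ren1) had an interval of -0.22 to 0.09, uromodulin (Umod) of -0.09 to 0.14 and nephrin (Nphs1) of -0.01 to 0.31. The fibrillar collagens Col1a1 and Col3a1 did not pass either, with intervals of -0.003 to 0.36 and -0.04 to 0.30. The cell cycle inhibitor Cdkn1a measured 47.0, 69.0, 100.3 and 82.0 at 6 months and 100.2, 131, 147 and 122 at 15 months and missed the threshold (log2 fold change 0.78 ± 0.20 (SE), adjusted p = 0.0692). It passed in 3 of the 13 fits: DESeq2, limma-voom and limma-trend without replicate 3 at 6 months. Cdkn2a was too low to be tested. Stromal genes gave 3 of 16 higher: the smooth muscle genes Acta2 (582, 547, 612 and 616 at 6 months and 876, 1103, 842 and 913 at 15 months; log2 fold change 0.66 ± 0.08 (SE), adjusted p = 0.00148) and Tagln (523, 542, 567 and 554 at 6 months and 794, 1259.7, 814 and 1067 at 15 months; log2 fold change 0.82 ± 0.12 (SE), adjusted p = 0.00493), both in every fit, and the proteoglycan Lum (1.22). The share higher among all genes was 1.48%. Col6a2, of microfibrillar collagen, rose by 0.51 (adjusted p = 0.00516), and Pxdn, which cross-links the basement membrane, fell: its log2 fold change was -0.39 in a comparison that held in every fit.

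Some further transcripts can follow RNA handling. Rn7sk, a small nuclear RNA without a poly(A) tail, measured 42.2, 25.1, 87.6 and 13.2 at 6 months and 117, 114, 99.8 and 117 at 15 months (log2 fold change 1.71 ± 0.41 (SE), adjusted p = 0.0471). Of 13 genes of the mitochondrial genome, 2 were lower, mt-Atp8 (-0.80) and mt-Nd3 (-0.79), beside 1.09% of all genes, with a median of -0.204. That count was 1 without replicate 1, 2 or 3 at 6 months or replicate 3 at 15 months, 3 without replicate 1 at 15 months and 0 with 16 libraries. All 79 cytosolic ribosomal protein genes had a log2 fold change above 0, with a median of 0.153, and 1 passed, Rpsa, beside 1.48% of all genes. That count was 1 without replicate 3 of either age, 0 without any other 1 library or with 16 libraries, and 9 by DESeq2. Of 28 immediate early genes 21 were tested, and 1 passed, Ier3; all 21 had a log2 fold change above 0, with a median of 0.726. That count was 7 without replicate 3 at 15 months, 2 without replicate 4 at 15 months, 0 without replicate 2 or 4 at 6 months or replicate 1 or 2 at 15 months, 8 by DESeq2 and 0 with 16 libraries. Fos, a member that missed the threshold (adjusted p = 0.0701), measured 9.59, 6.27, 6.35 and 8.1 at 6 months and 149.7, 82.0, 14.3 and 16.5 at 15 months, high in replicates 1 and 2 at 15 months. The part of RNA handling in the other results was not tested.

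**Figure D3:**
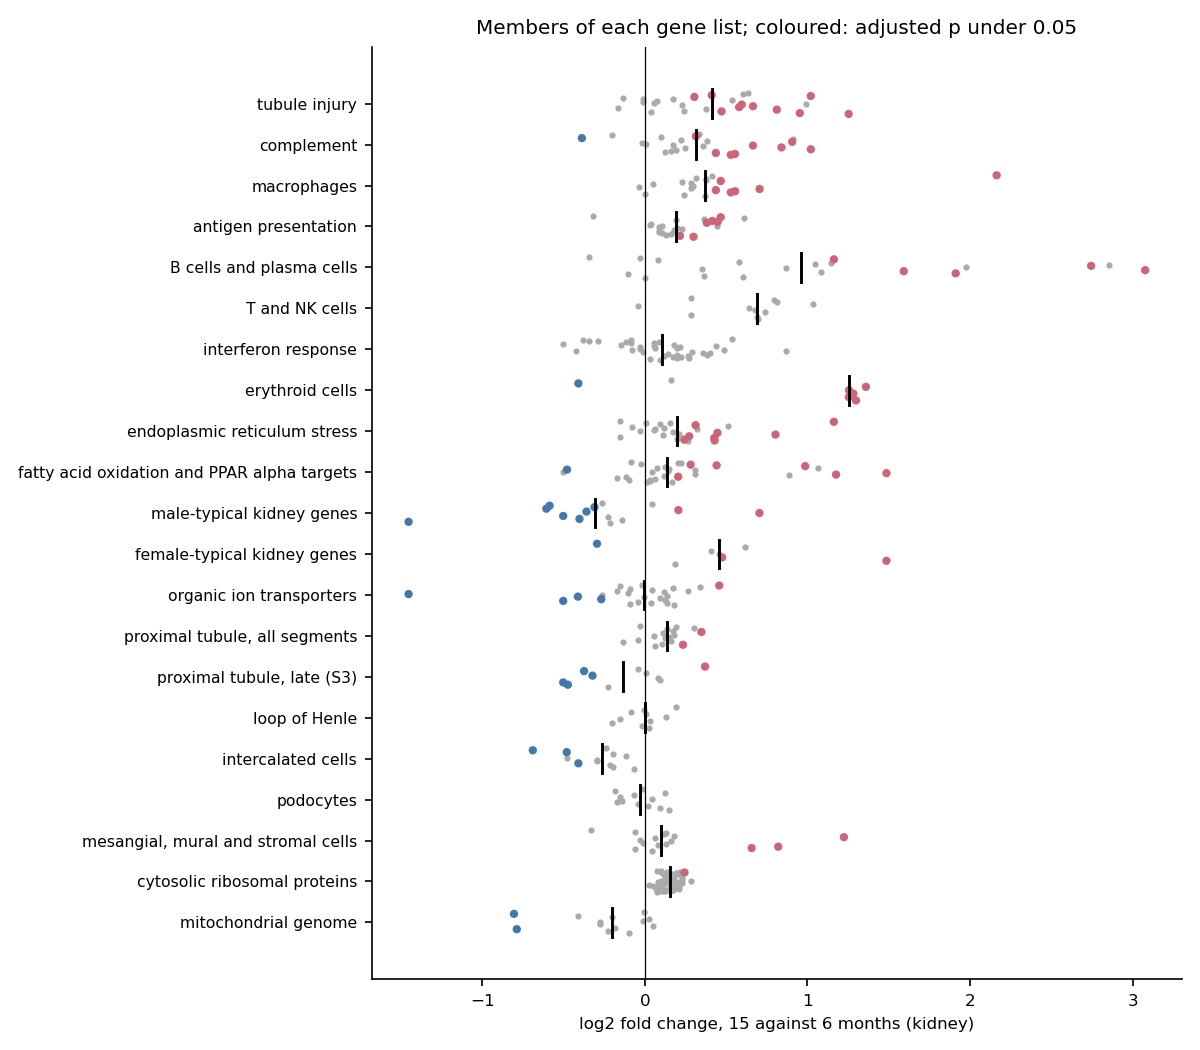
Log2 fold change at 15 against 6 months of the tested members of 21 gene lists (1 point per gene), with the list's median as a black bar and members past the threshold in red (higher) or blue (lower). Tubule injury, antibody and erythroid members lie to the right, male-typical and intercalated cell members to the left, and the 79 ribosomal protein genes sit in a narrow band above 0.

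Libraries at 24 and 30 months were not used in the test of 15 against 6 months, and their difference shares no library with it. No gene of 15268 passed in 30 against 24 months by limma-trend (0%), 1262 had an unadjusted p under 0.05 (8.27%), and DESeq2 called 15; without replicate 1 at 24 months limma-trend called 6. Of the 220 genes higher at 15 months, 158 were also higher at 30 than at 24 months (71.8%), and of 160 lower genes 12 were higher (7.5%), beside 49.9% of all genes tested. Replicates 3 and 4 at 30 months stood apart from the other kidney libraries; without them the shares were 70.9%, 23.6% and 51.1%. Vcam1 measured 484, 388, 522 and 512 at 24 months and 578, 549, 560.0 and 907 at 30 months, above its range at 15 months in every library. Lyz2 measured 1191, 1168, 1777 and 1653 at 24 months and 1992, 1728, 1209 and 4094 at 30 months. Spp1 at 24 months (11152, 11749, 12781 and 14964) overlapped its 15-month range and at 30 months (17609, 15183, 13981 and 18653) lay above it. Slco1a1 measured 3754, 2767, 2736 and 474 at 24 months and 1589, 1617, 65.6 and 1057 at 30 months, where 3 of the 4 libraries at 24 months lay above every 15-month library and all 4 at 30 months below. Hbb-bs measured 5202, 5378, 6203 and 5552 at 24 months and 3821, 3145, 5103 and 6947 at 30 months, below every 15-month library. Sdf2l1 measured 94.5, 102, 86.3 and 92.9 at 24 months and 115, 104, 89.8 and 155 at 30 months, also below every 15-month library. Igkc measured 7095, 4799.9, 10059 and 8209 at 24 months and 10247, 4175, 2469 and 36256 at 30 months, a spread wider than at any earlier age. At 24 months Igkc, Lyz2 and Vcam1 lay above their 15-month ranges in every library, and Hbb-bs below it.

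**Figure D4:**
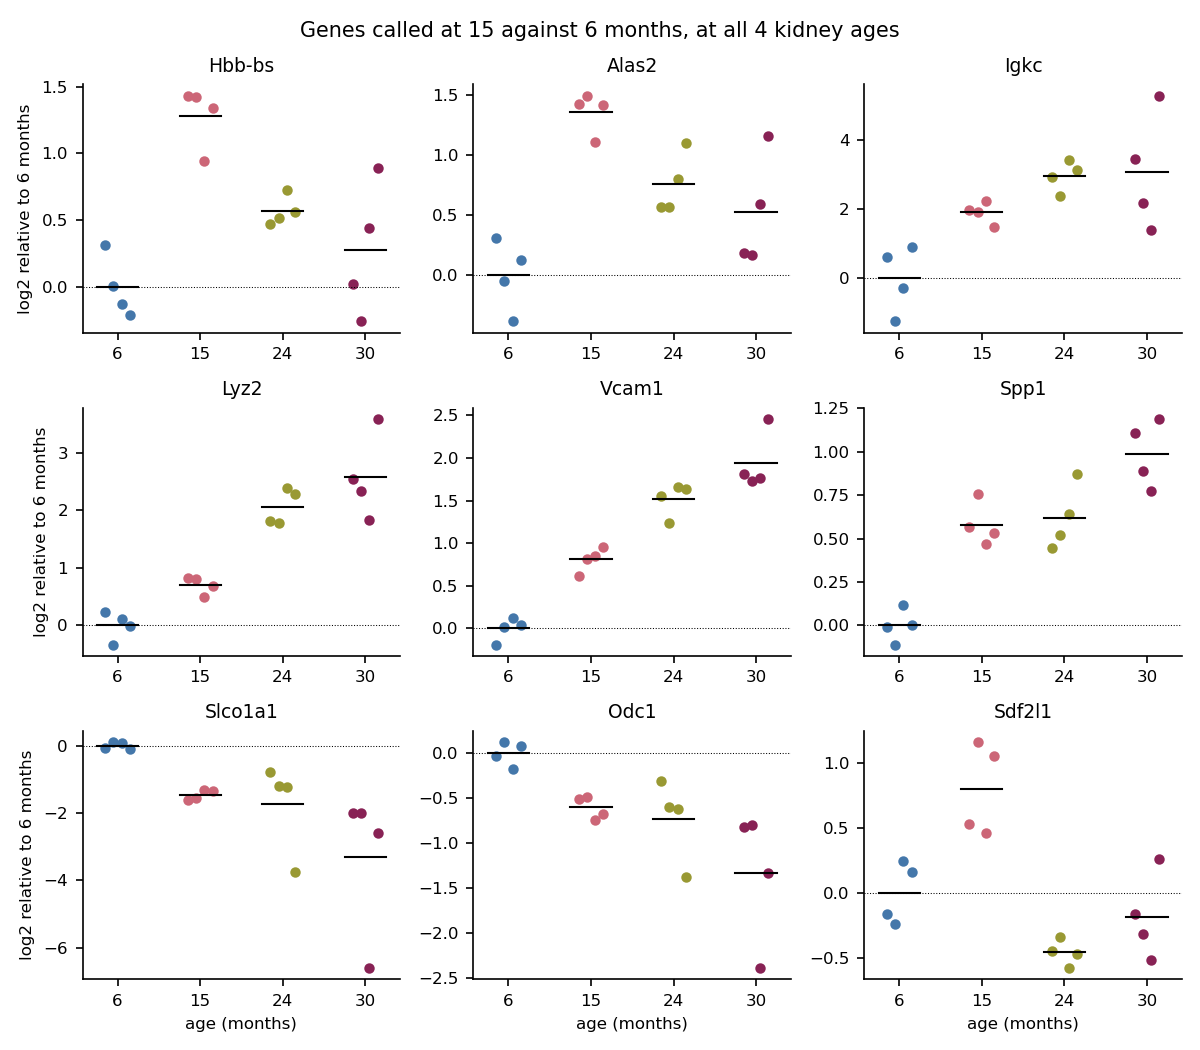
Log2(normalised value + 1) minus its mean at 6 months for 9 genes at 6, 15, 24 and 30 months, 1 point per kidney library (replicates 1 to 4 from left to right) with the mean of each age as a bar. Hbb-bs, Alas2 and Sdf2l1 are highest at 15 months, Igkc, Lyz2, Vcam1 and Spp1 have their highest means at 30 months, and Slco1a1 and Odc1 their lowest.

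Changes from 6 to 15 months were then set against those of liver, heart and lung from the same atlas, with the difference itself tested in a model of both tissues; each tissue was normalised on its own, and only genes with enough reads in both were tested. Against liver 354 of 11923 genes differed (2.97%), against heart 170 of 12681 (1.34%) and against lung 209 of 13851 (1.51%). These counts were 215 against liver without kidney replicate 1 and 231 without kidney replicate 4 at 15 months. Against heart they were 110 without kidney replicate 2 at 6 months, 93 without kidney replicate 4 at 15 months and 113 without heart replicate 4 at 15 months. Against lung they were 130 and 134 without the same kidney libraries in turn, and 139 and 129 without lung replicates 2 and 4 at 6 months. Of the kidney's own 381 genes, 69 of 288 tested differed from liver (24%), 55 of 261 from heart (21.1%) and 86 of 310 from lung (27.7%); they were chosen on the same kidney libraries, so these shares are a description. The fall of Lipo3 differed from all 3 tissues, by -0.79 ± 0.17 (SE, adjusted p = 0.018) from liver, -0.91 ± 0.11 (SE, adjusted p = 0.00022) from heart and -0.91 ± 0.12 (SE, adjusted p = 0.00132) from lung. So did that of Odc1, by -0.61 ± 0.15 (SE, adjusted p = 0.0301), -0.74 ± 0.10 (SE, adjusted p = 0.00033) and -0.70 ± 0.11 (SE, adjusted p = 0.00328) in the same order. Aldh1a1 rose more in kidney than in each of them, by 1.34 ± 0.15 (SE, adjusted p = 0.000104), 0.87 ± 0.17 (SE, adjusted p = 0.0126) and 0.96 ± 0.15 (SE, adjusted p = 0.00314). Slco1a1, which liver expresses too, changed by -0.30 in liver, and the difference was -1.15 ± 0.17 (SE, adjusted p = 0.0012). Ftcd, an enzyme of liver and kidney, differed from liver by 1.42 ± 0.13 (SE, adjusted p = 3.24e-05).

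The globin rise differed between organs. Hbb-bs changed by -0.05 in liver, -0.06 in lung and 0.66 in heart. The kidney change exceeded that of liver by 1.33 ± 0.20 (SE, adjusted p = 0.00152) and that of lung by 1.35 ± 0.20 (SE, adjusted p = 0.00236), whereas the difference from heart did not pass (0.62 ± 0.20 (SE, adjusted p = 0.146)). The antibody genes Ighm and Igkc did not differ past the threshold from any of the 3: the difference of Igkc was -1.67 ± 0.90 (SE, adjusted p = 0.382) from liver, 1.99 ± 0.65 (SE, adjusted p = 0.156) from heart and -0.32 ± 0.52 (SE, adjusted p = 0.813) from lung. The class II gene H2-Ab1 and the complement gene C3 did not differ past the threshold from any of the 3 tissues either, while Vcam1 differed from lung alone among them (0.58 ± 0.13 (SE, adjusted p = 0.0248)). Acta2 and Tagln rose more in kidney than in lung, by 0.70 ± 0.11 (SE, adjusted p = 0.00314) and 0.98 ± 0.15 (SE, adjusted p = 0.00267), and Acta2 also more than in heart, by 0.48 ± 0.12 (SE, adjusted p = 0.0427).

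**Figure D5:**
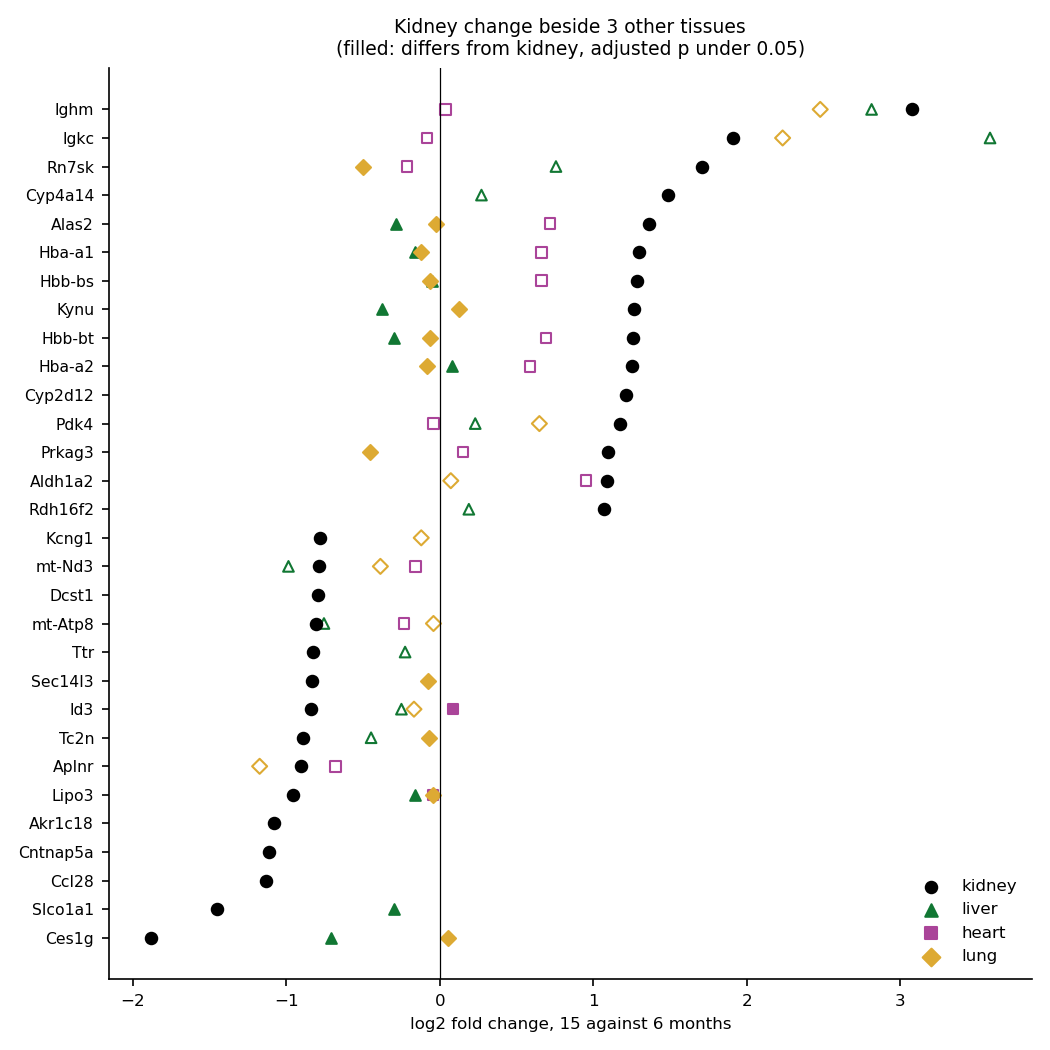
Log2 fold change at 15 against 6 months of the 15 highest and 15 lowest kidney genes (vertical axis) in kidney (black circles), liver (green triangles), heart (purple squares) and lung (yellow diamonds), each within its own table. Filled symbols mark a difference from kidney with adjusted p under 0.05, open symbols none; a missing symbol means too few reads in that tissue. The globin genes and Alas2 lie near 0 in lung and are filled there and in liver, and open in heart.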

How the data were processed

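RNA was extracted with RNAiso Plus and prepared with the Illumina Stranded mRNA kit, per the labels' protocols. The submitters' processing notes list STAR, RSEM, FastQC and DESeq2 (no versions) and build GRCm39. The gene annotation was not given in the sources used here. For every tissue the authors deposited 1 set of 55285 gene symbols with a normalised signal per library, which is reads divided by 1 size factor: 100% of values came out whole within 0.01 reads. The 8 recovered depths were 11.9 to 23.2 M reads, and low genes are measured least precisely in the shallower libraries.

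Genes were kept by filterByExpr of edgeR 4.0.16 (minimum count 10) and tested on log2(value + 1) with limma 3.58.1 (eBayes trend, two-sided, Benjamini-Hochberg, threshold 0.05) in R 4.3.3. Groups came from the labels. On simulated data with 14672 genes, 64.2%, 94% and 100% of genes changed 1.5-, 2- and 4-fold were called at 15 against 6 months, and 4.97% of calls were false. The changed genes were drawn above a minimum level, so these rates do not cover the lowest genes. For simulated differences from liver, heart and lung, 25.4%, 43.3% and 32.8% of 1.5-fold changes were called. Of those calls 6.82%, 3.36% and 4.48% were false. Alternatives were edgeR (TMM, RLE), DESeq2 1.42.0, limma-voom, pseudocounts of 0.1 and 5, no filter, 16 libraries, these without 30-month replicates 3 and 4, a replicate block and leaving out each library. No library was a copy of another (replicates of an age differed by a chi-square of at least 4.29 per degree of freedom over genes).

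The members, 45 gene lists and the choice of 8 libraries for the fit were made with earlier results of these data known. Named genes are the 15 highest and 15 lowest changes past the threshold with 50 or more reads and no overlap between ages (without Gm, Rik and immunoglobulin or T cell receptor segments), up to 4 members per list with the smallest adjusted p, a panel of 19 genes, and genes past the threshold in all 13 fits. Alb, Apoa1, Mup3, Serpina1c, Csf1r, Fos, Calr, Derl3, Cyp4b1, Acnat2 and further list members named beside a count were chosen after their values were seen. A gene of the erythroid list is not reported here. Promoter sequences are RefSeq's (GRCm38.p6, 27025 symbols), searched for 9 motifs. Other software was pandas 2.3.3 and, for plots, matplotlib 3.10.9.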

Additional observations from a re-analysis of the deposited data

Results flagged for a closer look

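Of 236 sets of 4 values looked at (a gene at 1 age), 21 had a value far from the other 3, and chance gives about 1 in 20 such sets. The rule was applied to normalised values without logs. Alb, Apoa1 and Mup3, counted among the 21, were chosen after their values were seen, so the count cannot be judged against that rate. At 6 months Slc5a11 was high in replicate 1 (633 against a next value of 552), Cyp4a12b was low in replicate 1 (347 against a next value of 426), Lpl was high in replicate 4 (13790 against a next value of 12200), Ighm was high in replicate 4 (1883 against a next value of 222). Also at 6 months, Ighg2b was high in replicate 4 (132 against a next value of 25.4), Hba-a1 was high in replicate 1 (2857 against a next value of 2130), Hsp90b1 was high in replicate 3 (10120 against a next value of 7830), Slc8a1 was low in replicate 2 (2056 against a next value of 2410). Also at 6 months, Pxdn was high in replicate 1 (562 against a next value of 492), Prkag3 was low in replicate 2 (81.5 against a next value of 106), Bmp6 was low in replicate 4 (786 against a next value of 914). At 15 months Cntnap5a was low in replicate 1 (31.5 against a next value of 40.3), Cyp2c23 was high in replicate 1 (810 against a next value of 736), Ighm was high in replicate 2 (2975 against a next value of 2270), Cd74 was low in replicate 1 (3249 against a next value of 3590). Also at 15 months, Hba-a2 was low in replicate 3 (3764 against a next value of 5640), Col3a1 was low in replicate 3 (522 against a next value of 610), Tc2n was high in replicate 3 (111 against a next value of 82), Alb was high in replicate 3 (1659 against a next value of 367). Also at 15 months, Apoa1 was high in replicate 3 (196 against a next value of 36), Mup3 was high in replicate 3 (130 against a next value of 19.1).

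The change from 6 to 15 months differed between kidney and another tissue (adjusted p under 0.05 of the difference by limma-trend) for the following genes, given as the kidney change minus the other tissue's on the log2 scale. Against liver the kidney change was higher for Alas2 1.64, Kynu 1.64, Hbb-bt 1.55, Hba-a1 1.46, Ftcd 1.42, Aldh1a1 1.34, Hbb-bs 1.33, Hba-a2 1.18 and Acaa2 0.417. Against liver the kidney change was lower for Ces1g -1.17, Slco1a1 -1.15, Lipo3 -0.795, Hsd11b1 -0.794 and Odc1 -0.612. Against heart the kidney change was higher for Aldh1a1 0.869, Acaa2 0.529 and Acta2 0.484. Against heart the kidney change was lower for Hsd11b1 -0.933, Id3 -0.926, Lipo3 -0.909, Odc1 -0.738 and Cd36 -0.49. Against lung the kidney change was higher for Rn7sk 2.21, Prkag3 1.55, Hba-a1 1.42, Alas2 1.39, Hbb-bs 1.35, Hba-a2 1.34, Hbb-bt 1.32, Kynu 1.14, Tagln 0.982, Aldh1a1 0.96, Acta2 0.702, Vcam1 0.583 and Acaa2 0.355. Against lung the kidney change was lower for Ces1g -1.94, Lipo3 -0.908, Tc2n -0.82, Sec14l3 -0.761, Odc1 -0.702, Hsd11b1 -0.654 and Cd36 -0.352.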

How the results depend on the processing

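The replicate numbers of the 2 ages share only a number: libraries with the same number deviated from their age means with correlations of 0.116, 0.071, -0.024 and -0.023, and not every library correlated best with its own number. With the number as a block, 365 genes passed at 15 against 6 months instead of 381, and 289 were shared; the blocked counts were 316 against liver, 233 against heart, 209 against lung and 0 at 30 against 24 months. At 15 against 6 months, 75 genes passed with all 16 libraries, 328 when these lacked 30-month replicates 3 and 4, and 592 with DESeq2. In the fit without those 30-month libraries, 10 tubule injury, 7 complement and 5 B and plasma cell genes were higher. No antigen presentation gene and no lower S3 gene passed in it. Leaving out 1 of the 8 libraries gave 148 to 307 genes. Leaving out 1 library gave 215 to 457 genes that differed from liver (354 with all), 93 to 252 from heart (170) and 129 to 212 from lung (209). At 30 against 24 months it gave 0 to 6, all 16 libraries gave 1 and DESeq2 15. Of 118 genes followed, 106 passed, and 70 of these passed in each fit that left out 1 library. Of the 106, 0 reversed in any alternative run. The runs share libraries, and the ages did not overlap in 370 of the 381 called genes, so the lack of reversals is no support. Serpina1c, which did not pass, turned to -0.28 without replicate 3 at 15 months, in a range up to 0.84. The calls lost among the 106 were 73 with 16 libraries, 21 when these lacked 30-month replicates 3 and 4, 5 and 0 with pseudocounts of 0.1 and 5, 6 without the filter, 5 with edgeR under either scaling, 3 with DESeq2, 3 with limma-voom and 10 with the block. The cause of these losses was not tested. Genes with few reads, such as S100a9, are limited by depth.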

Other observations

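Genes outside the lists also passed in all 13 fits at 15 against 6 months. Ric3, a chaperone of acetylcholine receptors, measured 48.0, 66.5, 55.8 and 66.8 at 6 months and 119, 111, 108 and 97.2 at 15 months (log2 fold change 0.88 ± 0.14 (SE), adjusted p = 0.00593), and Pde4d, which breaks down cyclic AMP, 230.2, 225, 261 and 207 at 6 months and 398, 430.0, 316 and 371 at 15 months (log2 fold change 0.71 ± 0.10 (SE), adjusted p = 0.00444). Rarres2, the chemoattractant chemerin, measured 294, 269.7, 274 and 285 at 6 months and 422, 421, 438 and 361 at 15 months (log2 fold change 0.54 ± 0.08 (SE), adjusted p = 0.00374), and Bmp6, an iron-responsive ligand of the BMP family, rose by 0.43 (adjusted p = 0.00958). Ociad2 fell (221, 212, 229.7 and 226 at 6 months and 122, 135, 167 and 131 at 15 months; log2 fold change -0.68 ± 0.10 (SE), adjusted p = 0.0053). Acnat1, a peroxisomal acyltransferase, measured 184, 154, 185 and 171 at 6 months and 280.3, 309, 346 and 299 at 15 months (log2 fold change 0.83 ± 0.09 (SE), adjusted p = 0.000691), and at 24 and 30 months 164, 138, 192 and 268 and 217, 187, 182 and 197, all below every 15-month library.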
